A study of Caenorhabditis elegans with 4 samples.

Results

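The peaks described here are the ChIP-seq peaks of NHR-28 on the arms of chromosome V of Caenorhabditis elegans. They are the entries of the series-wide peak list on chromosome V whose midpoint lies below 5900000 (left arm) or above 16550000 (right arm) on genome build WS220. Position alone chose them, and no measured value entered the choice. The rule found 567 of the 5338 series-wide peaks, 295 on the left arm and 272 on the right arm. The chromosome V centre between the boundaries held another 473.

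NHR-28 is a nuclear hormone receptor, a transcription factor of a family with a zinc-finger DNA-binding domain and, in most members, a ligand-binding domain. The family is greatly expanded in this nematode. Worm autosomes have a gene-dense centre where crossovers are rare, flanked by arms with frequent crossovers, more repeats and chromatin rich in H3K9 methylation that lies near the nuclear envelope. The arms of chromosome V are known for large families of nematode-specific genes, among them chemoreceptors and nuclear hormone receptors. Chromosomes of this species have no single centromere, so the arms are defined by recombination rate and not by a centromere.

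The ChIP and input samples all came from whole hermaphrodites of strain OP317 at the first larval stage (L1), with 2 ChIP samples and 2 input samples. Every sample, input included, carries the unc119(ed3) mutation and the transgene wgIs317, in which nhr-28 is fused to TY1, EGFP and FLAG tags and which also supplies unc119. The transgene was introduced by bombardment and the strain outcrossed 3 times, and the labels describe its expression pattern as that of nhr-28. The samples include no untagged strain, no second stage and no treatment. Worms were grown at 20 °C per the protocol, while the stage is labelled L1 26dC with no explanation of the second term. After fixation in 2% formaldehyde, antibodies to GFP were used for the precipitation, and 10% of each extract served as input. Nothing states that the replicates came from separate cultures.

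Each peak has a position, a width and 1 significance value from the authors' peak caller, which is a p-value or q-value under 0.001. Smaller values mark stronger peaks. The list of ChIP replicate 1 held 806 peaks, of which 95 lay on the arms, and that of ChIP replicate 2 held 803, of which 79 lay on the arms. The lists give no read counts, so the depth behind a peak is unknown and all intervals cover counting error only. The labels name no ChIP samples other than these 2, and how the series-wide list was made from them is not stated, so its overlap with the replicate lists cannot be read as independent agreement. The input values were not analysed here. Peaks are named by position, as no annotation of build WS220 was used.

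The arms carried more peaks per megabase than the centre of the same chromosome. Arm density was 55.3 peaks per Mb (exact Poisson 95% interval 50.8 to 60.0) and centre density 44.4 per Mb (40.5 to 48.6), a ratio of 1.24 (exact 95% interval 1.10 to 1.41). The exact binomial test on the 567 arm and 473 centre peaks against length gave a two-sided p = 0.000453, or 0.00816 after Benjamini-Hochberg adjustment over the 18 region comparisons made. This test and the intervals take peaks as independent units, which neighbouring peaks are not. The p-value may therefore be too small and the intervals too narrow. Chromosomes I to IV together held 66.8 per Mb (64.7 to 68.8) and X held 10.5 per Mb (9.01 to 12.1); these densities were not tested against the arms. Arm peaks covered 1.15% of arm length, with a mean width of 207 bp, and centre peaks 1.0% of centre length, with a mean width of 226 bp.

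The ratio stayed above 1 under each alternative run, but the call was lost under several. With peaks no more than 5000 bp apart merged and counted once, the ratio was 1.17 (exact binomial test, p = 0.0319, adjusted p = 0.441). Without the outer 500000 bp of each arm, a limit chosen after the densities were seen, the ratio was 1.11 (exact binomial test, p = 0.115, adjusted p = 0.687). The replicate lists taken alone, with 95 and 79 arm peaks, gave larger ratios of 1.39 and 1.34 that did not pass at these smaller numbers. The same exact test gave p = 0.0362 (adjusted p = 0.584) for replicate 1 and p = 0.0907 (adjusted p = 0.817) for replicate 2. Length was the only background, and the part of gene density, repeats or mappability in the difference was not tested.

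Between the arms, the left was the less dense. It held 50.0 peaks per Mb (exact Poisson 95% interval 44.5 to 56.0) over 5.90 Mb, against 62.4 per Mb (55.2 to 70.2) over 4.36 Mb on the right, where the length ends at the last peak of any list, at 20911074. The left-to-right ratio was 0.802 (0.678 to 0.949). The exact binomial test gave p = 0.00951 and, after adjustment, 0.0767, so the difference did not pass the threshold of 0.05. It passed with both boundaries moved 500000 bp towards the ends (ratio 0.777, adjusted p = 0.0368 in the exact test). With peaks no more than 5000 bp apart merged, leaving 213 on the left arm and 175 on the right, the ratio was 0.900 (adjusted p = 0.876 in the exact test).

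The replicate lists disagreed on the direction. Replicate 1 held 47 peaks on the left arm and 48 on the right, or 7.97 per Mb (exact Poisson 95% interval 5.85 to 10.6) against 11.0 per Mb (8.12 to 14.6). Replicate 2 held 47 on the left and 32 on the right, or 7.97 per Mb (5.85 to 10.6) against 7.34 per Mb (5.02 to 10.4). In neither list did the arms differ past the threshold (exact binomial tests, adjusted p = 0.721 for replicate 1 and 1.0 for replicate 2). Among peaks with a value of 1e-06 or less, 43 on the left arm and 29 on the right, the left-to-right ratio was 1.10. This ratio also stayed short of the threshold (exact binomial test, adjusted p = 0.929).

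The series-wide list was densest at the outer ends. The outermost 500 kb held 48 peaks on the left arm (96.0 per Mb) and 62 on the right (124 per Mb), more than any other 500 kb bin of the same arm. Peaks in at least 1 replicate list did not follow this on the left arm, where the outermost bin held 7 of them (14.0 per Mb) and the bins from 4.5 to 5.5 Mb held 9 each (18.0 per Mb). On the right arm the outermost bin also had the most supported peaks, 16 (32.0 per Mb). On the left arm the density then stayed between 26.0 and 52.0 per Mb out to 4.5 Mb from the end, and was 70.0 and 64.0 per Mb in the next 1 Mb. On the right arm a second rise lay 2.0 to 2.5 Mb from the end, with 43 peaks (86.0 per Mb), and the lowest density was 24.0 per Mb, 3.5 to 4.0 Mb from the end. These bins were read off the data and were not tested one by one.

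**Figure D1:**
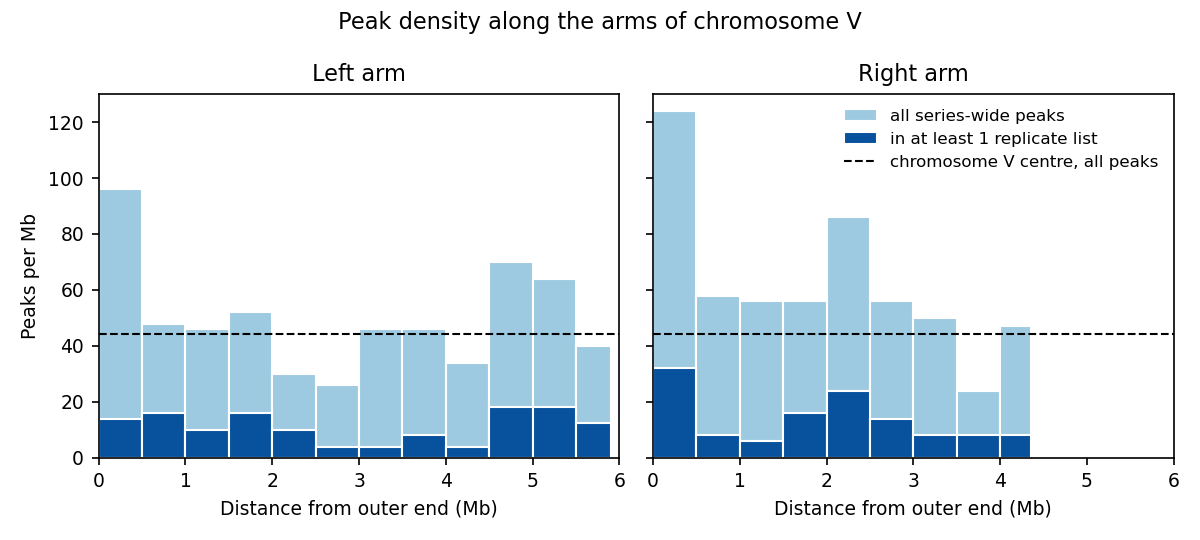
Series-wide peaks per Mb (y axis) in 500 kb bins by distance from the outer end in Mb (x axis), for the left arm (left panel) and the right arm (right panel). Light bars are all peaks, dark bars those in at least 1 replicate list, and the dashed line is the centre at 44.4 per Mb; the outermost bin is the tallest on each arm (96.0 and 124 per Mb).

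Cut at its middle, the left arm had 147 outer peaks (49.8 per Mb) and 148 inner peaks (50.2 per Mb), a ratio of 0.993 (exact 95% interval 0.785 to 1.26; exact binomial test, adjusted p = 1.0). The right arm had 157 outer peaks (72.0 per Mb) and 115 inner peaks (52.7 per Mb), a ratio of 1.37 (1.07 to 1.75), with p = 0.0128 and an adjusted p = 0.0767 in the same exact test. With the split moved outward, to 1.45 Mb from the right end, the right arm ratio was 1.49 and passed the threshold (exact binomial test, adjusted p = 0.0141). The left arm, split at 1.97 Mb from its end, gave a ratio of 1.35 and stayed short of it (adjusted p = 0.0600 in the same exact test).

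Peaks on the right arm lay closer to one another than those on the left arm, with a spacing near that of the whole series. Over the series the median gap to the nearest peak was 4264.5 bp, and 54.1% of peaks had a neighbour within 5000 bp. The median gap to the nearest peak was 5092 bp on the left arm (quartiles 2021 and 12720 bp) and 3794 bp on the right (1054 and 10237 bp), with 6015 bp in the centre (2341 and 16210 bp). A neighbour within 5000 bp was present for 143 of 295 left-arm peaks, or 48.5% (Wilson 95% interval 42.8 to 54.2), and for 146 of 272 right-arm peaks, or 53.7% (47.7 to 59.5). Joined at that gap, left-arm peaks formed 61 groups and 152 lone peaks, and right-arm peaks 49 groups and 126 lone peaks. Pairs made up 45 of the left-arm groups and 28 of the right-arm groups, so groups of 3 or more numbered 16 on the left and 21 on the right. A higher density shortens gaps by itself, and the grouping was not tested.

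**Figure D2:**
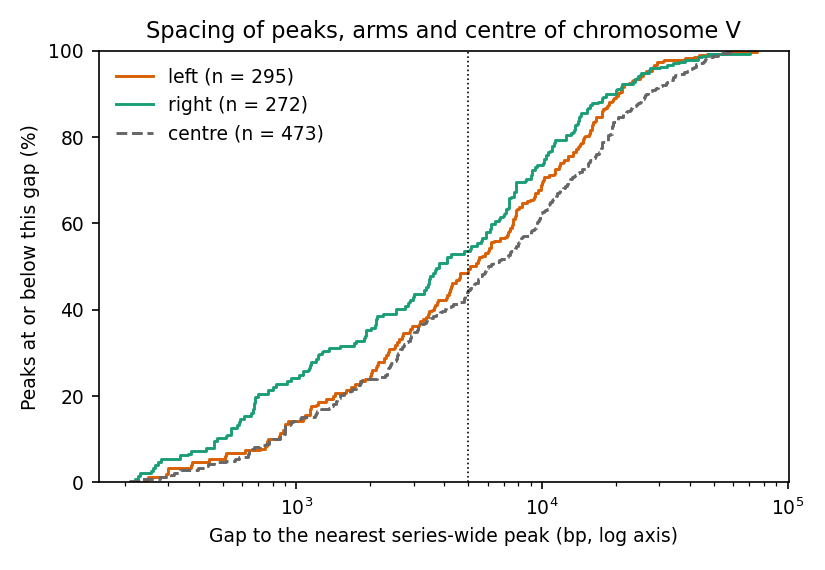
Cumulative share of peaks in % (y axis) by gap to the nearest series-wide peak in bp on a log axis (x axis), for the left arm, the right arm and the centre (dashed). The right-arm curve lies above the others at short gaps, and the medians are 5092 bp on the left arm, 3794 bp on the right arm and 6015 bp in the centre; the dotted line marks 5000 bp.

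Counts in 100 kb bins showed the same order. Their variance divided by their mean, which is about 1 for peaks placed independently at an even rate, was 2.04 over 59 bins on the left arm, 3.31 over 43 bins on the right arm and 1.11 over 106 bins in the centre. Without the outer 500000 bp the ratio was 1.47 on the left arm and 2.49 on the right, and among peaks with a value of 0.0001 or less it was 1.34 on the left arm and 2.91 on the right. The fullest bins held 15 peaks on the left arm, in both the first and the second 100 kb of the chromosome, and 21 on the right arm, at 20700001 to 20800000. Of those 21 peaks 6 were in at least 1 replicate list and 3 in both. Of the left-arm bins, each of the pair with 15 peaks had 2 in at least 1 replicate list and 0 in both. Over all series-wide peaks 22% were in at least 1 replicate list and 4.5% in both. The counts of these bins are small and were not tested against those shares.

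The largest group on each arm differed in make-up. On the left arm it held 5 peaks over 8410 bp at 4822581 to 4830990, with a median width of 95 bp. Their values ran from 1.69e-05 to 0.000412, and 1 of the 5 was in a replicate list, against 22% of all series-wide peaks. On the right arm the largest group held 13 peaks over 21053 bp at 18704338 to 18725390. Their median width was 918 bp, and together they covered 46.9% of the span, against 7.86% in the left-arm group. Of these 13 peaks 9 were at least 300 bp wide, and the gaps between neighbours ran from 231 to 3952 bp.

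This right-arm block contained the strongest peak of the arm, at 18723095 to 18724673, with a value of 4.57e-23 and a width of 1579 bp, the widest of any arm peak. That peak was in both replicate lists, with values of 3.15e-08 in replicate 1 and 8.46e-15 in replicate 2. The peak just before it, at 18721684 to 18722733, had a value of 2.62e-10 and was in neither list. The one before that, at 18720500 to 18721417, had a value of 5.93e-13 and was again in both, at 1.35e-07 in replicate 1 and 0.000266 in replicate 2. Of the 13 peaks 4 were in replicate 1, 4 in replicate 2 and 2 in both. Over all series-wide peaks these shares were 13.9%, 12.6% and 4.5%. Without the largest group of each arm, an alternative chosen after the groups were seen, the right-arm variance-to-mean ratio was 3.13 and the left-arm one 1.95.

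Another dense right-arm group was of a different kind. The 12 peaks at 20739734 to 20758876 covered 1496 bp of 19143 bp, with values from 2.83e-06 to 0.000664. Of them 2 were in a replicate list and 0 in both, against 22% and 4.5% of all series-wide peaks.

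The value distributions of the arms overlapped over nearly their whole range. The median significance value was 0.000128 on the left arm (quartiles 1.66e-05 and 0.000452) and 0.000106 on the right (1.33e-05 and 0.000381), with 0.000163 in the centre and 0.000107 over the series. Strong peaks, with a value of 1e-06 or less, numbered 43 of 295 on the left arm, or 14.6% (Wilson 95% interval 11.0 to 19.1), and 29 of 272 on the right, or 10.7% (7.53 to 14.9), against 14.9% of all series-wide peaks. The difference of 3.91 percentage points (Newcombe 95% interval -1.62 to 9.38) was short of the threshold (adjusted p = 0.603 in Fisher's exact test). At a limit of 0.0001 the sign turned, with the left-arm share 3.81 percentage points below the right (difference -3.81, Fisher's exact test, adjusted p = 0.833). The arms together had 12.7% strong peaks and the centre 11.8%, a difference of 0.859 percentage points (-3.22 to 4.83; Fisher's exact test, adjusted p = 1.0).

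The arms were represented among the strongest peaks of the whole series. They held 4 of its first 20 peaks (20.0%), 9 of its first 100 (9.0%) and 51 of its first 534 (9.55%). Their share of all series-wide peaks was 10.6%, on 10.2% of the summed chromosome length. The shares of the first 100 and the first 534 were thus slightly below that of all peaks. The right arm gave 3 of the first 20 and the left arm 1. Over the first 534 the order was the other way, with 37 on the left arm and 14 on the right. Among all 5338 series-wide peaks the left arm held 295 and the right arm 272. The share of both arms together does not show this split, which was not tested.

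Widths differed little. The median peak was 150 bp wide on the left arm (quartiles 65.5 and 282 bp) and 156.5 bp on the right (78.2 and 271.5 bp), with 174 bp in the centre. Peaks of at least 300 bp numbered 66 on the left arm and 61 on the right, which is 22.4% of each, against 22.8% of all series-wide peaks (left minus right -0.0536 percentage points, Newcombe 95% interval -6.95 to 6.78; Fisher's exact test, adjusted p = 1.0). Arms and centre had 22.4% and 24.1% wide peaks, a difference of -1.70 percentage points (-6.89 to 3.42; Fisher's exact test, adjusted p = 0.908). Peaks under 50 bp made up 20.0% of the left arm and 18.8% of the right. The widest left-arm peak, at 5284006 to 5285453, spanned 1448 bp and had a value of 2.49e-10.

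**Figure D3:**
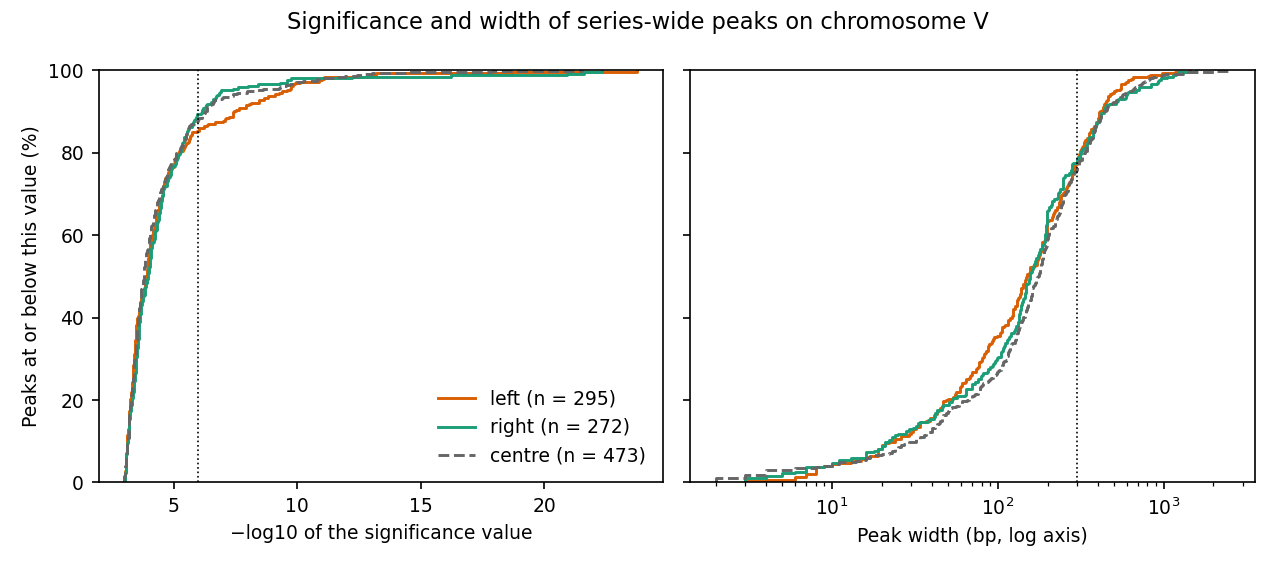
Cumulative share of series-wide peaks in % (y axes) by −log10 of the significance value (left panel, x axis) and by width in bp on a log axis (right panel, x axis), for the left arm, the right arm and the centre. The curves lie close together; the dotted lines mark a value of 1e-06, reached by 14.6% of left-arm and 10.7% of right-arm peaks, and a width of 300 bp, reached by 22.4% of each.

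Each series-wide peak was then compared with the replicate lists, at an overlap of at least 1 bp. On the left arm 47 of 295 peaks, or 15.9% (Wilson 95% interval 12.2 to 20.5), were in replicate 1, and on the right arm 44 of 272, or 16.2% (12.3 to 21.0), against 13.9% of all series-wide peaks. The arms differed by -0.244 percentage points (Newcombe 95% interval -6.36 to 5.79; Fisher's exact test, adjusted p = 1.0). In replicate 2 the numbers were 35 on the left arm, or 11.9% (8.66 to 16.1), and 26 on the right, or 9.56% (6.61 to 13.6), against 12.6% of all. This difference was 2.31 percentage points (-2.88 to 7.43; Fisher's exact test, adjusted p = 0.908).

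Support by at least 1 list was the same on both arms to within 0.1 percentage points, at 66 peaks (22.4%) on the left and 61 (22.4%) on the right, against 22% of all series-wide peaks (difference -0.0536, Newcombe 95% interval -6.95 to 6.78; Fisher's exact test, adjusted p = 1.0). Peaks in both lists numbered 16 on the left arm, or 5.42% (Wilson 95% interval 3.37 to 8.63), and 9 on the right, or 3.31% (1.75 to 6.17), against 4.5% of all. That difference was 2.11 percentage points (-1.41 to 5.68; Fisher's exact test, adjusted p = 0.787). The intervals leave room for differences of several points either way. Supported peaks per unit length gave a left-to-right ratio of 0.800 (exact 95% interval 0.556 to 1.15; exact binomial test, adjusted p = 0.630).

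Arms and centre did not differ past the threshold in any of these shares. The difference between arms and centre was 1.46 percentage points for replicate 1 (Newcombe 95% interval -2.99 to 5.81), -0.0239 for replicate 2 (-3.89 to 3.74), 0.623 for at least 1 list (-4.48 to 5.64) and 0.815 for both (-1.70 to 3.24). The adjusted p-values of Fisher's exact tests were 0.908, 1.0, 1.0 and 0.908 in that order. The supported density was 1.28 times that of the centre (exact 95% interval 0.979 to 1.68; exact binomial test, adjusted p = 0.292).

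**Figure D4:**
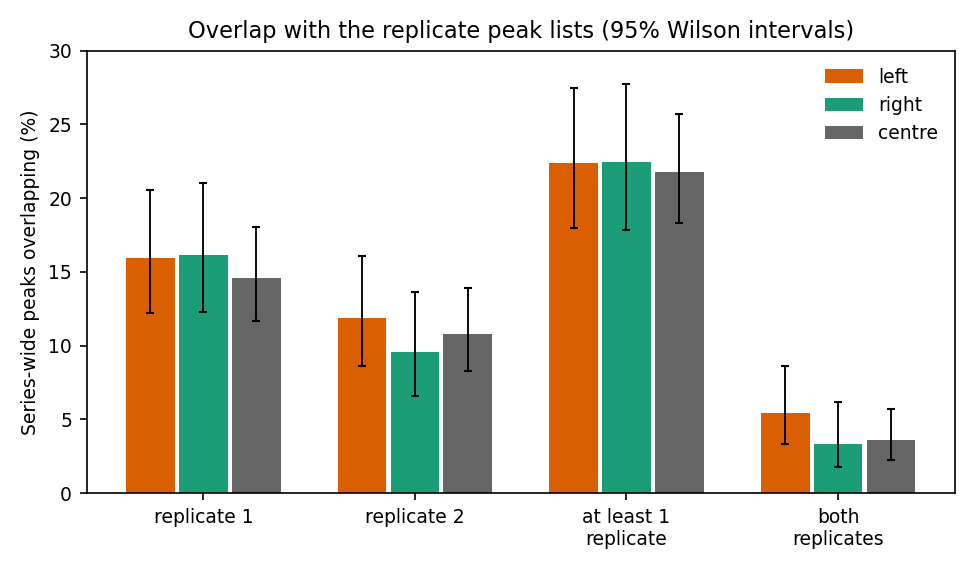
Share of series-wide peaks in % (y axis) that overlap a peak of replicate 1, of replicate 2, of at least 1 replicate and of both replicates (x axis), for the left arm, the right arm and the centre, with 95% Wilson intervals as error bars. Within each category the intervals of the 3 regions overlap; 15.9% of left-arm and 16.2% of right-arm peaks were in replicate 1, and 5.42% and 3.31% were in both.

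Support went with strength on both arms, and in the centre as well. Of the 43 strong left-arm peaks 35 were in at least 1 list (81.4%) and 15 in both, and of the 29 strong right-arm peaks 23 were in at least 1 list (79.3%) and 8 in both. Among weaker peaks 31 of 252 on the left arm (12.3%) and 38 of 243 on the right (15.6%) were in at least 1 list. In both lists was 1 weaker peak on each arm. In the centre 46 of 56 strong peaks (82.1%) and 57 of 417 weaker peaks (13.7%) were in at least 1 list. Both lists held 16 of these strong centre peaks and 1 of the weaker ones. Peaks in both lists had a median width of 532 bp on the left arm and 680 bp on the right, while peaks in neither list had 124 bp and 140 bp. A wide peak meets an overlap of 1 bp more easily than a narrow one. The part of this rule in the widths was not tested. The replicate lists were called from these same ChIP samples, so the relation of support to strength and width is a description and was not tested.

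Seen from the replicate lists, all 47 left-arm peaks of replicate 1 and 45 of its 48 right-arm peaks were in the series-wide list, which holds 92.7% of all replicate 1 peaks. Of the replicate 2 peaks, 35 of 47 on the left arm (74.5%) and 26 of 32 on the right (81.2%) were in it, against 84.2% of all. Replicate 1 peaks with a replicate 2 partner numbered 16 of 47 on the left arm, or 34.0% (Wilson 95% interval 22.2 to 48.3), and 9 of 48 on the right, or 18.8% (10.2 to 31.9), against 29% of all replicate 1 peaks. Replicate 2 peaks with a replicate 1 partner were 34.0% of the left arm (22.2 to 48.3) and 28.1% of the right (15.6 to 45.4), against 29.3% of all. These shares were not tested further.

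Few arm peaks of replicate 1 were outside the series-wide list. These 3 lay on the right arm, at 20845505 to 20845587 (value 0.000449), 17268912 to 17269001 (0.000450) and 19126232 to 19126603 (0.000907). Replicate 2 had 18 such peaks, of which 12 lay on the left arm. Its strongest were at 59458 to 59670 on the left arm (1.29e-05, rank 116 of the replicate 2 list), and at 16707796 to 16708161 (3.89e-05) and 19952380 to 19952631 (0.000203) on the right.

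The strongest left-arm region in the series-wide list was at 1627081 to 1627889, 809 bp wide. Its value was 1.72e-24 in the series-wide list, 3.97e-13 in replicate 1 and 4.57e-12 in replicate 2, and it ranked 13 in each replicate list. A second peak, 1407 bp further on at 1629297 to 1629703, had 1.29e-11 in the series-wide list and 5.90e-08 in replicate 1 and was not in replicate 2.

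The region that led the left arm in both replicate lists was another one, at 264839 to 266014. Its value was 1.96e-19 in the series-wide list, 6.82e-25 in replicate 1 and 8.12e-20 in replicate 2, where it ranked 2 and 5 among all peaks. All 3 lists gave it the same end, 266014, and the replicate starts were 264904 and 264905.

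The other left-arm peaks among the first 8 were all in both replicate lists. In series-wide order they lay at 3644151 to 3644744 (6.58e-14), 5049394 to 5049950 (1.15e-13), 1003728 to 1004181 (1.42e-13), 1151335 to 1151882 (8.22e-12) and 777360 to 777672 (9.54e-12). The peak at 3644151 had 0.000121 in replicate 1 and 2.93e-05 in replicate 2, so neither replicate ranked it high (337 and 144). The peak at 1003728 had 1.83e-07 in replicate 1 and 9.30e-07 in replicate 2. The other 3 had a smaller value in replicate 1, from 2.68e-08 to 4.82e-07, than in replicate 2, from 6.95e-05 to 0.000330.

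On the right arm, 2 more regions followed the leading one of the 13-peak block within the first 20 of the series. The peak at 19528851 to 19529530 had 2.43e-22 in the series-wide list, 4.84e-09 in replicate 1 and 3.58e-08 in replicate 2. The peak at 20773327 to 20774542, in the fullest 100 kb bin, had 1.21e-21 in the series-wide list, 3.96e-10 in replicate 1 and 9.33e-06 in replicate 2. The series-wide value was the smallest of the 3 for each of these regions, but a common scale of the lists has not been established.

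Of the remaining right-arm peaks among the first 8, that at 17950434 to 17951581 (5.80e-17) overlapped 2 separate replicate 1 peaks, the only arm peak to overlap more than 1 peak of a list, and had 3.42e-08 in replicate 1 and 0.000330 in replicate 2. The peak at 20785955 to 20786308 (1.82e-10) had 2.16e-05 in replicate 1 and 0.000948 in replicate 2, near the limit of the list. The peak at 20898995 to 20899526 (2.53e-10), with its midpoint 0.0118 Mb from the last peak end, had 1.19e-05 in replicate 1 and was not in replicate 2. Both lists thus held 6 of the first 8 right-arm peaks and 7 of the first 8 left-arm peaks.

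Some strong arm peaks were in neither replicate list. On the left arm the first 3 of these lay at 995759 to 996188 (1.51e-09), 202633 to 203080 (3.57e-09) and 464763 to 465420 (9.20e-09). On the right arm they were the peak at 18721684 within the 13-peak block (2.62e-10), 20420358 to 20420775 (3.81e-09) and 20774972 to 20775220 (3.19e-07), the last lying 429 bp beyond the strong peak at 20773327. The left-arm peak at 995759 lay 7539 bp from the peak at 1003728, which was in both lists.

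The 25 arm peaks in both lists had series-wide values from 1.72e-24 to 4.29e-06. In replicate 1 the median of their values was 4.63e-07 and in replicate 2 it was 6.84e-05, and 19 of the 25 had the smaller value in replicate 1. The whole lists leaned the same way, with a median value of 0.000193 in replicate 1 and 0.000276 in replicate 2. The replicate centres lay a median of 66.0 bp apart on the left arm and 98.5 bp on the right, and 13 of 16 left-arm and 5 of 9 right-arm peaks had centres within 100 bp. The peak at 18400302 to 18400684 was the only one whose replicate peaks had the same start and the same end, 18400302 and 18400683. Its value was 3.12e-06 in the series-wide list, 1.54e-07 in replicate 1 and 1.67e-05 in replicate 2.

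Across these 25 peaks the replicate values had a rank correlation (Spearman's rho) of 0.51 and, as −log10 values, a Pearson's r of 0.82. On the left arm (16 peaks) rho was 0.40 and Pearson's r 0.93, and on the right arm (9 peaks) 0.65 and 0.41. All are descriptions over peaks that share their libraries, and only peaks present in both lists enter. Over the 25 peaks Pearson's r rested in part on the left-arm peak at 264839, since it was 0.57 over the other 24, where rho was 0.45.

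**Figure D5:**
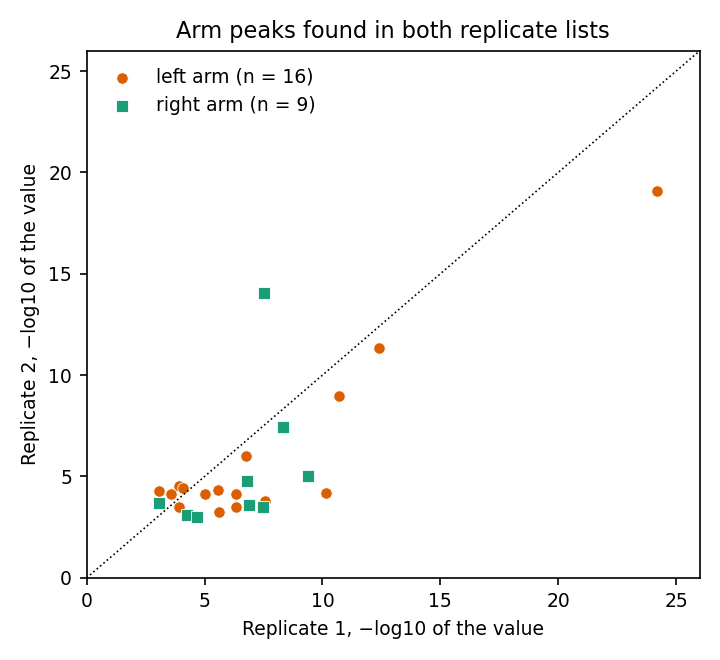
Significance of the 25 arm peaks found in both replicate lists, as −log10 of the value in replicate 1 (x axis) and in replicate 2 (y axis), with 16 left-arm peaks as circles and 9 right-arm peaks as squares. The dotted line marks equal values; 19 peaks lie below it, with the smaller value in replicate 1, and the left-arm peak at the top right is the one with 6.82e-25 and 8.12e-20.

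At the boundaries the nearest peaks on either side were not among the strong ones. The last left-arm peak, at 5843323 to 5843521 (3.00e-05), was in neither replicate list, and the first centre peak beyond it, at 5917580 to 5918035 (1.70e-05), was in replicate 1. The first right-arm peak, at 16571922 to 16572116 (4.58e-05), was in replicate 2, and the last centre peak before it, at 16538297 to 16538307 (0.000128), was in neither list.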

How the data were processed

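The authors' peak lists for each of the 2 ChIP samples and for the series were used. The genome build is WS220 per the file headers, and PeakSeq is the caller named in every line. The version, threshold, control, aligner and any pooling of reads were not given in the sources used here. The deposited p-value or q-value of each peak (which of them is not stated) was used to describe, rank and split peaks within a list. Values of overlapping peaks were also set side by side between lists, though a common scale of the lists has not been established. Depth is unknown. Samples were grouped by title.

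Midpoints set the region. Densities were compared with exact binomial tests against length and shares with Fisher's exact tests, two-sided, adjusted by Benjamini-Hochberg over 18 comparisons (threshold 0.05). For each alternative, the comparisons not rerun entered this adjustment with the p-values of the first run. Peaks are the units, they are not independent of their neighbours, and these tests compare lists, not samples. Gaps count the bases between peaks. Python 3.11.15 with scipy 1.17.1 was used, and the procedures were tested on simulated data. The simulated counts took peaks as independent, so they cannot show how the tests behave on clustered peaks.

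Named peaks are, on each arm, the 8 with the smallest value, the 3 strongest in neither list, the largest group, the fullest 100 kb bin and the widest peak, with the peaks beside each boundary and the 3 strongest arm peaks of each replicate outside the series-wide list. The peak at 18400302 and the 12-peak group were chosen after their values were seen. The members and lists were chosen with earlier results of these data known. Genes, sequence and motifs were not analysed here, for want of a WS220 genome and annotation.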

Additional observations from a re-analysis of the deposited data

How the results depend on the processing

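Ratios are first over second region and differences are in percentage points; the cause of a change was not tested unless fewer peaks or samples entered by construction. The arms-to-centre density ratio of 1.24 stayed above 1 under all 11 alternatives, but did not pass the threshold with a value of 1e-06 or less (1.33, fewer peaks), with merged peaks (1.17), with peaks of at least 50 bp (1.21), in the replicate 1 list (1.39) or replicate 2 list (1.34, fewer peaks), or without the outer 500000 bp (1.11, chosen later). The left-to-right ratio of 0.802 passed it with boundaries 500000 bp towards the ends (0.777) and in the outer 3000000 bp (0.683, chosen later), and turned with a value of 1e-06 or less (1.10) and in the replicate 2 list (1.09), where neither passed; with merged peaks it was 0.900. The outer-to-inner ratio of the right arm (1.37) passed with the split at 1.45 Mb from the end (1.49) and without the largest group (1.54, chosen later); that of the left arm (0.993) turned with the split at 1.97 Mb from the end (1.35) and with a value of 1e-06 or less (1.39), without passing. The ratios of supported density kept their direction and did not pass under 7 alternatives each; leaving out a replicate gave 0.790 to 0.995 between the arms and 1.24 to 1.37 against the centre.

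No difference of shares passed the threshold under any alternative run. Many lay near 0, so that signs turned, but not all did. With a value of 1e-06 or less, left minus right kept its sign at 13.2 for replicate 2 and 7.30 for both replicates. Arms minus centre kept its sign at 5.48 for strong peaks at a limit of 0.0001 and -5.35 for wide peaks at 200 bp. For left minus right, replicate 1 turned to 1.99 with boundaries towards the centre, 0.487 with peaks of at least 50 bp and 2.22 with 50% reciprocal overlap. At least 1 replicate turned to 2.04, 0.932 and 3.23 under these same settings and to 2.09 with a value of 1e-06 or less. Strong peaks turned to -3.81 at a limit of 0.0001. Wide peaks turned to 1.04 with boundaries towards the centre, 9.02 with a value of 0.0001 or less, 2.42 at 200 bp and 2.34 without the largest group (chosen later). For arms minus centre, a value of 1e-06 or less turned replicate 1 to -6.55, replicate 2 to 8.33 and at least 1 replicate to -1.59; strong peaks turned to -0.279 at 1e-10, and wide peaks to 0.249 and 0.283 with boundaries towards the ends and the centre. Leaving out a replicate gave -0.244 to 2.31 between the arms and -0.0239 to 1.46 against the centre, for at least 1 replicate and for both replicates, as only 1 list is then required. The median gap was 9962 bp on the left arm and 7058 bp on the right with a value of 0.0001 or less. With peaks of at least 50 bp it was 7405 bp on the left arm and 5134 bp on the right. Fewer peaks enter under both settings by construction. Left minus right was 1298 bp at first, and 2904 and 2271 bp under these settings. No paired analysis was possible because the tests run over the peaks of these lists, not over samples, and the input values were not used here. The planned comparison of genes, sequence and motifs was not run. The lists hold no depth, and a peak absent from a replicate list may have been missed at its depth.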

Other observations

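Dense outermost ends were also seen on other chromosomes, in a comparison made after the arm densities were known. The outermost 500 kb of chromosome V held 96.0 peaks per Mb at the low-coordinate end (exact Poisson 95% interval 70.8 to 127) and 124 per Mb at the high-coordinate end (95.1 to 159), against 49.7 per Mb over the whole chromosome. On chromosomes I to IV the same windows ran from 72.0 per Mb, at the high-coordinate end of I, to 122 per Mb, at the high-coordinate end of III. The whole chromosomes I to IV held 64.8, 58.5, 80.5 and 64.9 per Mb in that order, and each end was denser than its chromosome except the low-coordinate end of III, at 80.0 per Mb. On X the ends held 3 and 13 peaks, or 6.0 and 26.0 per Mb, against 10.5 per Mb over the chromosome. The lengths run to the last peak of any list, and the comparison was not tested.

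The replicate lists differed at the dense right end. The outermost 500 kb of the right arm held 14 peaks of replicate 1 and 6 of replicate 2, while the outermost 500 kb of the left arm held 4 and 6. These counts are small and were not tested. Unequal counts were also seen elsewhere, with 11 and 6 at the low-coordinate end of I and 9 and 14 at that of II.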
